A study of Mus musculus with 12 samples.

Results

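The genes described here belong to lysophospholipid signalling in mouse aortic valve leaflets: the sphingosine kinases Sphk1 and Sphk2, the sphingosine 1-phosphate (S1P) lyase Sgpl1, the S1P receptors S1pr1, S1pr2 and S1pr3, the lysophosphatidic acid (LPA) producing enzyme Enpp2, and the LPA receptor Lpar1. They are 8 of the 41709 genes in the deposited table and were chosen by name. The set was put together around the pattern of Sphk1 over the genotypes, so the values of Sphk1 are a description and no test of them is used. Of the 8 genes, 7 passed the filter on low counts and S1pr3 did not.

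The RNA came from whole leaflets cut by laser microdissection out of fixed and frozen heart sections, with 3 libraries in each of 4 genotypes. The labels give the genotypes as DKO, SMKO, ECKO and CTRL, and the design text calls the 3 libraries of each one biological triplicates. All mice were 2 months old and of the strain C57BL/6J;129SvEv. In the study as it is known, Efemp2, the gene of the elastic fibre protein fibulin-4, was deleted in endothelial and smooth muscle cells together (DKO), in smooth muscle cells (SMKO) or in endothelial cells (ECKO), and CTRL is the comparison without deletion. The sources used here do not give the Cre drivers, the alleles that CTRL mice carry or the number of animals behind a library, so p-values measure the spread between these libraries, part of which may be technical. Efemp2 had 0 counts in every DKO library, 4, 0 and 0 counts in SMKO, 3, 15 and 8 in ECKO, and 58, 23 and 9 in CTRL.

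Sphingosine kinases add a phosphate to sphingosine, a breakdown product of ceramide. The S1P they make leaves the cell and acts on a family of G protein-coupled receptors that govern the endothelial barrier, vessel tone and cell migration, and it is removed by phosphatases or cleaved for good by the lyase. LPA is made outside the cell by autotaxin, the secreted enzyme that Enpp2 encodes, acts on receptors of its own and is broken down by lipid phosphate phosphatases. In human aortic valves autotaxin is known for its link to leaflet calcification.

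The promoter windows of both kinase genes are shown because the kinases had the highest fitted increases among the members in DKO against CTRL. Windows are the 250 bases before an annotated start in RefSeq (mouse build GRCm38.p6), and 6 of the 8 members were matched. Sphk1 has 5 such windows at alternative starts, and since the deposited counts are per gene they do not tell which start was used. Capitals mark matches, on either strand, to 4 motifs: the GC box GGGCGG, the TATA box TATAAA, the AP-1 site TGANTCA and the TEAD site GGAATG.
Sphk1 window 1, chr11:116530850-116531099, plus strand: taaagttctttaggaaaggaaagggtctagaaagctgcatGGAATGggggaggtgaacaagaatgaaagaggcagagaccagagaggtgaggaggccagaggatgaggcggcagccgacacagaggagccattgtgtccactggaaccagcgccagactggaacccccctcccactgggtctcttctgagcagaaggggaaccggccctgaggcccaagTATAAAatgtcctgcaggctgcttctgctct
Sphk1 window 2, chr11:116531587-116531836, plus strand: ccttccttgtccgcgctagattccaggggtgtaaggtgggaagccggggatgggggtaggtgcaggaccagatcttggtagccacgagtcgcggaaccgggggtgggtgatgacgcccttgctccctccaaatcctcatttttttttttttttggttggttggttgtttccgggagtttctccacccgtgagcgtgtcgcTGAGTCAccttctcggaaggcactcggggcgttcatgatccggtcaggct
Sphk2 window 1, chr7:45718003-45718252, minus strand: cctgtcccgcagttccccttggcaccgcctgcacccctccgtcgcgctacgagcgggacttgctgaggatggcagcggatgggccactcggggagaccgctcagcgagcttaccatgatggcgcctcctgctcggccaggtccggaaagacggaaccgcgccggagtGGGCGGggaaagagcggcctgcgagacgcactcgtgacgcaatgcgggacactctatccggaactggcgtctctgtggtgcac
In the first Sphk1 window a TATA box lies close to the start and a TEAD site lies further upstream, and the second holds an AP-1 site. Of the Sphk1 windows not printed, window 3 overlaps window 2 and holds the same AP-1 site, and windows 4 and 5 hold none of the 4 motifs. None of the 5 Sphk1 windows holds a GC box, whereas the Sphk2 window printed above holds 1 and Sphk2 window 2 holds 2. Among 32851 windows of the same length, 32.7% hold a GC box, 12.4% a TATA box, 6.75% an AP-1 site and 12.6% a TEAD site. A match describes the letters only. The GC content was 55.6% and 57.6% in the 2 Sphk1 windows and 67.6% in the Sphk2 window, beside a median of 52.4% over all windows.

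Library totals ran from 74827 to 615665 counts, and 6296 genes were tested. Levels are CPM (counts scaled to a common library size) after TMM scaling, which sets libraries of unlike composition on 1 scale, and 1 count was worth between 1.46 and 13.8 CPM. Markers of the expected cells were detected in every genotype, with all 12 endothelial and all 9 interstitial markers at more than 0 counts. Library SMKO 2 stood apart: its TMM factor of 0.739 was the lowest, and its summed macrophage (4082 CPM) and interstitial (46376 CPM) markers were the highest of the 12 libraries. Y-linked genes had 28 counts in DKO 3, 89 in SMKO 1, 30 in CTRL 3 and 0 or 1 in each of the other libraries, so ECKO alone held no library with more than 1. The labels give no sex. Results that rest on SMKO 2 are therefore given with and without it. In leaflets sequenced as a whole, fewer cells of a type and less RNA per cell cannot be told apart.

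Per length, the order of the members was led by Enpp2. Over the 12 libraries the median deposited TPM was 125 for Enpp2, 57.2 for S1pr1, 25.1 for Sgpl1, 13.6 for Sphk2, 12.6 for Lpar1, 10.8 for S1pr2, 4.24 for Sphk1 and 2.91 for S1pr3. Neighbours in this order overlapped in their ranges over libraries: Enpp2 ran from 11.3 to 239 TPM and S1pr1 from 33.1 to 80.2 TPM. Within DKO the order was another one, with S1pr1 at a median of 47.2 TPM above Enpp2 with 33.9 TPM. Sphk1 with 22.2 TPM there stood above Sphk2 (20.7 TPM), S1pr2 (11.9 TPM) and Lpar1 (11.5 TPM). Enpp2 led in the other genotypes, with medians of 153 TPM in SMKO, 170 TPM in ECKO and 199.98 TPM in CTRL. In SMKO too, Sphk1 with a median of 10.5 TPM stood above Lpar1 (9.49 TPM), S1pr2 (6.73 TPM) and Sphk2 (5.73 TPM), on few counts.

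Sphk1 was present at a few counts per library in ECKO and CTRL leaflets and at several times that level in DKO. Raw counts were 12, 23 and 14 in DKO, 14, 3 and 2 in SMKO, 0, 4 and 3 in ECKO, and 3, 5 and 1 in CTRL. As CPM these were 54.5, 45.8 and 58.1 in DKO, 23.8, 15.4 and 27.6 in SMKO, 0, 5.84 and 6.89 in ECKO, and 4.37, 7.73 and 7.43 in CTRL. Every DKO library lay above every library of the other genotypes, every SMKO library lay above all ECKO and CTRL libraries, and ECKO and CTRL overlapped. The count of 0 in ECKO 1 allows a level of up to 15.4 CPM.

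Means of Sphk1 were 52.8 ± 6.30 CPM in DKO, 22.3 ± 6.24 CPM in SMKO, 4.24 ± 3.71 CPM in ECKO and 6.51 ± 1.86 CPM in CTRL (SD, n = 3 each). The fitted log2 fold changes (± SE) were 3.01 ± 0.59 for DKO against CTRL, 3.24 ± 0.61 for DKO against ECKO and 1.24 ± 0.54 for DKO against SMKO. For SMKO against CTRL the value was 1.77 ± 0.68, and for ECKO against CTRL it was -0.23 ± 0.80. Averaged over endothelial status, smooth muscle deletion went with 2.51 ± 0.46, and averaged over smooth muscle status, endothelial deletion went with 0.50 ± 0.50. The interaction, which asks whether DKO departs from the sum of both single deletions, was 1.47 ± 0.99 on the log2 scale. In the authors' deposited table the signed fold of Sphk1 in DKO was 7.82 against CTRL, 9.13 against ECKO and 2.29 against SMKO.

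**Figure D1:**
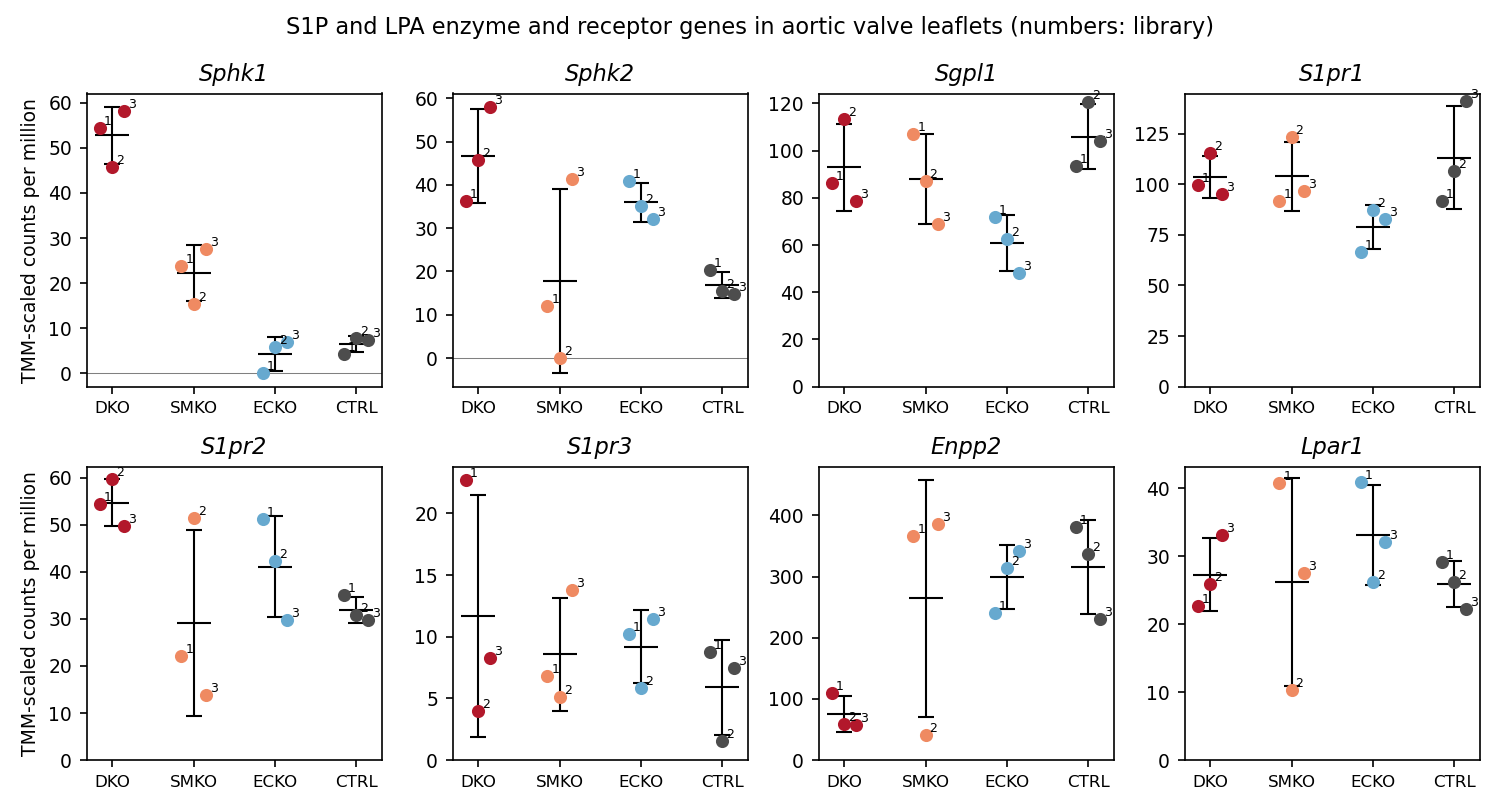
TMM-scaled CPM (y axis, from 0) of the 8 genes in each library (points, numbered by library) of DKO, SMKO, ECKO and CTRL leaflets, with the group mean (wide bar) and SD (whiskers, n = 3). Sphk1 lies between 45.8 and 58.1 CPM in DKO and between 4.37 and 7.73 CPM in CTRL, and Enpp2 lies between 58.1 and 109 CPM in DKO and between 230.3 and 380.4 CPM in CTRL.

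Sphk2, the second sphingosine kinase, found in the nucleus and in mitochondria as well as the cytosol, had its highest means in DKO and ECKO, the genotypes with endothelial deletion, but none of its edgeR comparisons passed adjustment over all genes with the low-count filter. Its levels were 36.3, 45.8 and 58.1 CPM in DKO, 11.9, 0 and 41.4 CPM in SMKO, 41.0, 35.0 and 32.1 CPM in ECKO, and 20.4, 15.5 and 14.9 CPM in CTRL. All DKO and all ECKO libraries lay above all CTRL libraries, while SMKO overlapped DKO, ECKO and CTRL. The 0 counts in SMKO 2 allow up to 15.4 CPM. Its mean in SMKO was 17.8 CPM with SMKO 2 and 26.7 CPM without it. Against CTRL the log2 fold change was 1.40 ± 0.46 in DKO (edgeR adjusted p = 0.197) and 0.99 ± 0.47 in ECKO (edgeR adjusted p = 0.998). Averaged over smooth muscle status, endothelial deletion went with a log2 difference of 1.47 ± 0.37 (unadjusted p = 0.000367, edgeR adjusted p = 0.344), and without SMKO 2 it was 1.24 (edgeR adjusted p = 0.125). With no filter on low counts the difference passed, at 1.46 and an adjusted p of 0.0338. Over the 4 genotypes together the edgeR adjusted p of Sphk2 was 0.242, against 0.0461 with no filter and 0.0334 in limma-voom with the filter. Exons of Sphk2 overlap those of Rpl18 by 373 bases and those of Dbp by 539 bases on the opposite strand in the annotation of an older build, and the library kit keeps no strand, so part of the Sphk2 counts is uncertain. The log2 fold change of Rpl18 in DKO against CTRL was -0.10 ± 0.25, and that of Dbp, which ran from 0 to 271 CPM over libraries, was -0.75 ± 1.53.

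The 2 kinases differed in their share of the kinase transcripts. Of the summed TPM of both, Sphk1 made up 61.6%, 51.7% and 51.7% in DKO, 68.2%, 100% and 41.6% in SMKO, 0%, 15.1% and 18.7% in ECKO, and 18.7%, 34.9% and 34.9% in CTRL. The SMKO 2 share of 100% rests on 3 counts of Sphk1 and 0 of Sphk2. That of SMKO 3 rests on 2 counts of Sphk1 and 3 of Sphk2, and that of CTRL 3 on 1 and 2. Every DKO and SMKO library lay above every ECKO and CTRL library, but the gap between SMKO 3 and CTRL 3 rests on these few counts. The order is a description since Sphk1 enters the share.

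Sgpl1, the lyase that cleaves S1P irreversibly, had its lowest mean in ECKO and passed in no comparison. Its levels were 86.3, 114 and 78.8 CPM in DKO, 107, 87.3 and 69.0 CPM in SMKO, 71.7, 62.7 and 48.2 CPM in ECKO, and 93.3, 121 and 104 CPM in CTRL. ECKO libraries all lay below the CTRL and the DKO libraries and overlapped SMKO, and DKO overlapped SMKO and CTRL. The log2 fold change was -0.16 ± 0.27 in DKO against CTRL, with a 95% interval from -0.71 to 0.39, and -0.83 ± 0.28 in ECKO against CTRL (unadjusted p = 0.00536, edgeR adjusted p = 0.998).

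Of the S1P receptors, S1pr1, the main endothelial receptor, which acts through Gi, was the most abundant. Its levels were 99.9, 116 and 95.4 CPM in DKO, 91.9, 123 and 96.6 CPM in SMKO, 66.6, 87.5 and 82.6 CPM in ECKO, and 91.8, 107 and 141 CPM in CTRL. The 3 ECKO libraries lay below every library of the other genotypes. For DKO against CTRL the log2 fold change of S1pr1 was -0.04 ± 0.26. Its 95% interval ran from -0.58 to 0.50, so a change of either sign within those bounds is not excluded. In ECKO against CTRL it was -0.41 ± 0.26 (edgeR adjusted p = 0.998). The summed level of the 12 endothelial markers ran the other way in ECKO: 1189.5 to 1409.8 CPM in DKO, 1325 to 2222 CPM in SMKO, 1736 to 2016 CPM in ECKO and 1352 to 1634 CPM in CTRL.

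S1pr2, a receptor that couples to several G proteins, had 54.5, 59.7 and 49.8 CPM in DKO, 22.1, 51.4 and 13.8 CPM in SMKO, 51.2, 42.3 and 29.9 CPM in ECKO, and 35.0, 30.9 and 29.7 CPM in CTRL. All DKO libraries exceeded all CTRL libraries, and the 51.4 CPM of SMKO 2 lay within the DKO range. The SMKO mean was 29.1 CPM with SMKO 2 and 18.0 CPM without it. The log2 fold change was 0.76 ± 0.36 in DKO against CTRL (edgeR adjusted p = 0.401) and 0.92 ± 0.41 in DKO against SMKO (edgeR adjusted p = 0.703). S1pr3, another receptor of the family, had 5, 2 and 2 counts in DKO, 4, 1 and 1 in SMKO, 2, 4 and 5 in ECKO, and 6, 1 and 1 in CTRL. Over pooled counts its ratio of DKO to CTRL was 1.52, with an exact interval from 0.519 to 4.51 that covers counting error only. The remaining S1P receptors, S1pr4 and S1pr5, had 13 and 3 counts over all 12 libraries and were not tested.

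Enpp2, the gene of autotaxin, was the member with the most counts, and its counts in DKO were low for the depth of those libraries. Raw counts were 24, 30 and 14 in DKO, 215, 8 and 28 in SMKO, 47, 215 and 149 in ECKO, and 261, 218 and 31 in CTRL. Scaled to CPM they were 109, 59.7 and 58.1 in DKO, 366, 41.1 and 386 in SMKO, 241, 314 and 342 in ECKO, and 380.4, 337 and 230.3 in CTRL. All DKO libraries lay below all ECKO and CTRL libraries. SMKO was split, with SMKO 2 below every DKO library and SMKO 1 and SMKO 3 above or within the CTRL range. The SMKO mean of Enpp2 without SMKO 2 was 376 CPM.

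Group means of Enpp2 were 75.6 ± 28.9 CPM in DKO, 264 ± 194 CPM in SMKO, 299 ± 52.3 CPM in ECKO and 316 ± 77.2 CPM in CTRL (SD, n = 3 each). The fitted log2 fold change in DKO was -2.13 ± 0.61 against CTRL, which is 4.38-fold lower (edgeR adjusted p = 0.201), -2.03 ± 0.61 against ECKO (edgeR adjusted p = 0.237) and -1.81 ± 0.63 against SMKO (edgeR adjusted p = 0.641). None of these passed with all 12 libraries and the low-count filter. With no filter on low counts all 3 passed, at -2.15 against CTRL, -2.03 against ECKO and -1.75 against SMKO. The edgeR adjusted p was 2.02e-07, 1.71e-06 and 0.000659, and 158, 173 and 32 of all genes passed there. With only the 2 groups compared, Enpp2 passed against CTRL (edgeR adjusted p = 0.000116) and ECKO (edgeR adjusted p = 4.03e-06) but not SMKO. Of all genes, 99 and 172 passed in those 2 fits. Without SMKO 2, with the filter, the standard errors were smaller and all 3 passed. The values were then -2.16 ± 0.27 against CTRL (edgeR adjusted p = 3.29e-06), -2.05 ± 0.27 against ECKO (edgeR adjusted p = 7.95e-06) and -2.35 ± 0.30 against SMKO (edgeR adjusted p = 3.69e-06). Over all genes, calls without SMKO 2 numbered 139, 150 and 128 in these 3 comparisons, against 31, 36 and 0 with all libraries and the filter. Leaving out any other single library, with the filter, gave no call of Enpp2 in them.

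Without SMKO 2, Enpp2 was also the 1 member to pass the interaction, with a log2 value of -2.24 (edgeR adjusted p = 0.000936), against -1.71 ± 0.83 with all libraries (edgeR adjusted p = 0.820). In that setting the level of Enpp2 in DKO was lower than the sum of both single deletions, on the log2 scale, would give. The interaction passed for 62 of all genes there, against 2 with all libraries. SMKO 2 had the lowest Enpp2 level of the 12 libraries (41.1 CPM). Leaving it out raised the SMKO level in both the interaction and DKO against SMKO, so both fitted values grew in size. With all 12 libraries, DESeq2 called the lower Enpp2 level of DKO relative to CTRL (adjusted p = 0.00259) and to ECKO (adjusted p = 0.0140) but not to SMKO (adjusted p = 0.251), and limma-voom called none of them (adjusted p = 0.249, 0.317 and 0.742). In the authors' deposited table, where a minus sign stands for a lower value in DKO, the signed folds of Enpp2 were -4.31 against CTRL, -4.003 against ECKO and -3.31 against SMKO.

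**Figure D2:**
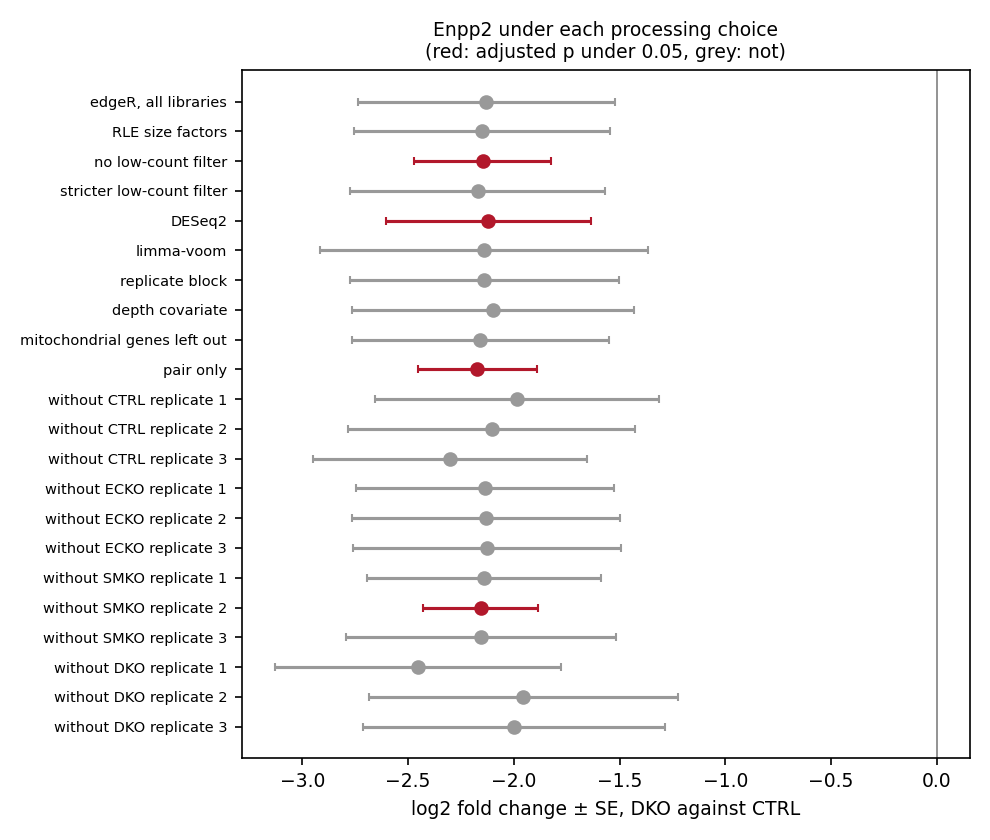
Log2 fold change of Enpp2 in DKO against CTRL (x axis, points with SE whiskers) under each processing choice (rows), red where the adjusted p was under 0.05. All points lie between -2.45 and -1.95, and 4 of the 21 alternatives are red, among them the one without SMKO replicate 2.

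Some marker sums did not overlap between DKO and CTRL. The 5 lymphatic endothelial markers summed to 77.2 to 104 CPM in DKO, 97.6 to 152 CPM in SMKO, 133 to 214 CPM in ECKO and 121 to 159 CPM in CTRL, with Ccl21a at 0 in DKO and CTRL. The 8 cardiomyocyte markers summed to 62.2 to 77.2 CPM in DKO, 37.4 to 110 CPM in SMKO, 15.4 to 687 CPM in ECKO and 24.8 to 52.0 CPM in CTRL, and Myh6, Actc1, Nppa and Myl7 were at 0 in DKO. The smooth muscle and pericyte markers (7 of 8 detected in DKO and CTRL, 6 of 8 in SMKO) summed to 464 to 518 CPM in DKO, 207 to 367 CPM in SMKO, 358 to 459 CPM in ECKO and 371 to 493 CPM in CTRL, so that DKO overlapped CTRL and every SMKO library lay below every DKO and CTRL library. All 8 T, B and NK cell markers were at 0 in DKO, where a count of 0 allows up to 13.6, 5.97 and 12.4 CPM, and their sum ran from 0 to 8.51 CPM in SMKO, 2.30 to 10.2 CPM in ECKO and 3.09 to 14.9 CPM in CTRL. Melanocyte markers (5 of 5 detected) overlapped between DKO, at 350.5 to 863 CPM, and CTRL, at 163 to 641 CPM, as did the sums of macrophage, mast cell, erythroid, platelet and adipocyte markers. The part of these markers in the Enpp2 and Sphk1 values was not tested.

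**Figure D3:**
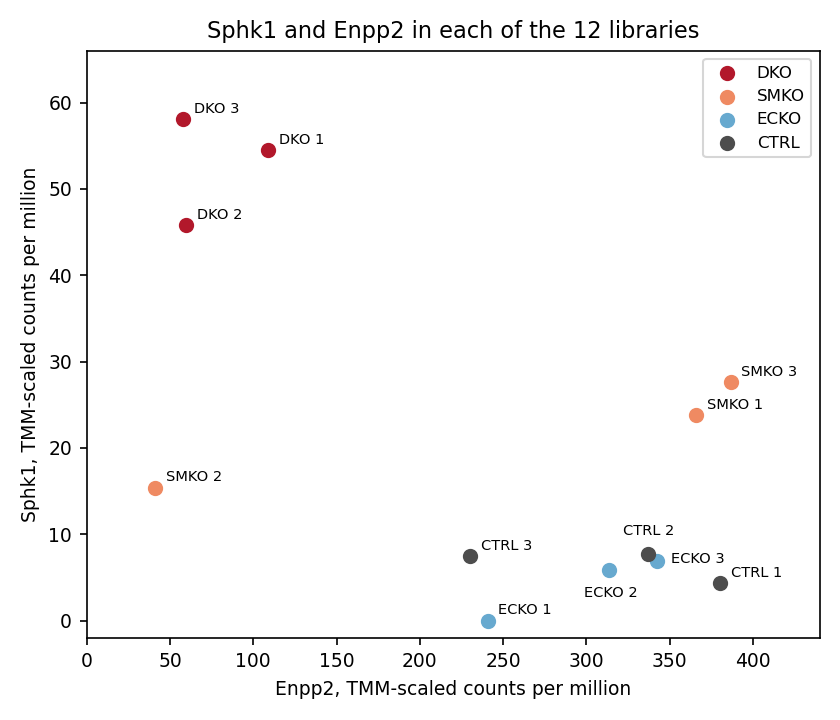
Sphk1 (y axis) against Enpp2 (x axis), both in TMM-scaled CPM, for each of the 12 libraries, colored by genotype. The DKO libraries sit at the upper left, with Sphk1 at 45.8 CPM or more and Enpp2 at 109 CPM or less, and SMKO 2 sits at the left with 41.1 CPM of Enpp2 and 15.4 CPM of Sphk1.

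Lpar1, the best known LPA receptor of fibroblasts, showed no difference between genotypes larger than the spread of its libraries. It had 22.7, 25.9 and 33.2 CPM in DKO, 40.8, 10.3 and 27.6 CPM in SMKO, 41.0, 26.3 and 32.1 CPM in ECKO, and 29.1, 26.3 and 22.3 CPM in CTRL. The genotypes overlapped in all 6 pairs. For DKO against CTRL the log2 fold change was 0.01 ± 0.46. The 95% interval ran from -0.92 to 0.94, so a change of either sign within those bounds is not excluded.

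**Figure D4:**
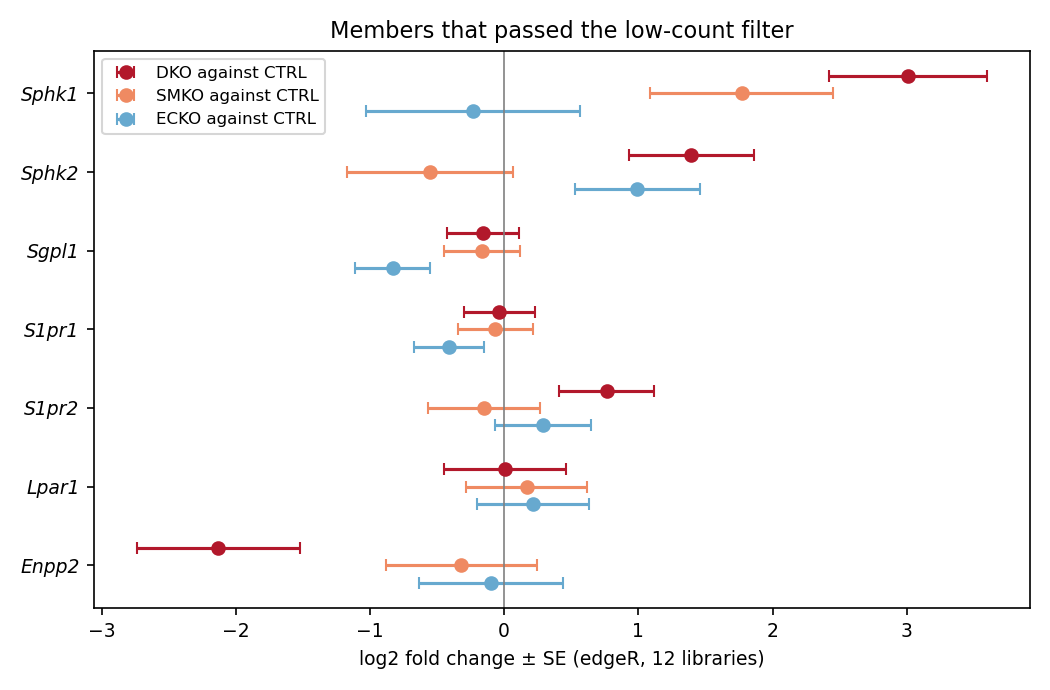
Log2 fold change with SE (x axis) of the 7 tested members (rows) in DKO, SMKO and ECKO, each against CTRL, from the edgeR model of 12 libraries. Sphk1 in DKO (3.01) and Enpp2 in DKO (-2.13) lie farthest from 0, and the S1pr1 and Lpar1 values lie within 0.41 of it.

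With the low-count filter and all 12 libraries, none of the 6 tested members besides Sphk1 passed edgeR's adjusted p of 0.05 in any comparison. With no filter, edgeR called Sphk2 and Enpp2 in some comparisons. The values that follow are with the filter. In DKO against CTRL, 3 of the 6 members had an unadjusted p under 0.05 (Sphk2 and S1pr2 higher, Enpp2 lower). Of all tested genes, 0.492% passed in that comparison and 11.6% had an unadjusted p under 0.05. DESeq2 called Enpp2 of these members there and limma-voom called none. Counting the 6 members other than Sphk1, libraries of DKO and CTRL did not overlap for 3 (Sphk2, S1pr2 and Enpp2), beside 17.8% of all tested genes. For ECKO against CTRL they did not overlap for 3 of the 6 (Sphk2 higher, Sgpl1 and S1pr1 lower), beside 11.8% of all genes, and 2 of these 3 had an unadjusted p under 0.05. In that comparison edgeR and limma-voom called 0 of 6296 genes, 4.34% had an unadjusted p under 0.05, and DESeq2 called 2 genes, no member among them. In DKO against ECKO, 0.572% of all genes passed, 10.8% had an unadjusted p under 0.05, as did Sgpl1 (higher) and Enpp2 (lower), and libraries did not overlap for 3 of the 6 (Sgpl1, S1pr1 and Enpp2) beside 18.9% of all genes. In DKO against SMKO, 3 of the 6 members had an unadjusted p under 0.05 (Sphk2 and S1pr2 higher, Enpp2 lower) beside 6.29% of all genes. In SMKO against CTRL none of the 6 did, beside 5.48%, and in SMKO against ECKO 2 did (Sgpl1 higher, Sphk2 lower), beside 3.80%. For endothelial deletion averaged over smooth muscle status 4 of the 6 did (Sphk2 and S1pr2 higher, Sgpl1 and Enpp2 lower) beside 4.99%, for smooth muscle deletion 1 did (Enpp2, lower) beside 10.5%, for the interaction 1 did (Sgpl1, higher) beside 6.23%, and over the 4 genotypes 3 did (Sphk2, Sgpl1 and Enpp2) beside 8.99%. Of all genes, 0.0318% passed the interaction. Libraries of SMKO overlapped those of DKO and those of CTRL for all 6, where 9.55% and 10.5% of all genes did not overlap, and those of ECKO for 5, S1pr1 being the exception, beside 9.28%.

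The rest of the pathway was read from 8 lists holding 87 genes, of which 49 were tested and 38 were too low. Leaving out the 8 members, 42 were tested, and edgeR with the low-count filter and all 12 libraries called 0 of them in every comparison. Of all tested genes, 0.492% passed in DKO against CTRL, 0.206% for smooth muscle deletion averaged over endothelial status and 0.302% over the 4 genotypes. Acer2, 1 of the 42, passed in some other edgeR settings given below. In DKO against CTRL, 24 of the 49 tested genes had a positive and 25 a negative fold change, with a median log2 value of -0.0027 beside 0.02 over all tested genes. Of the 42 genes, DESeq2 and limma-voom also called 0 in DKO against CTRL. In edgeR 6 of the 42 had an unadjusted p under 0.05 (4 higher and 2 lower), beside 11.6% of all tested genes.

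**Figure D5:**
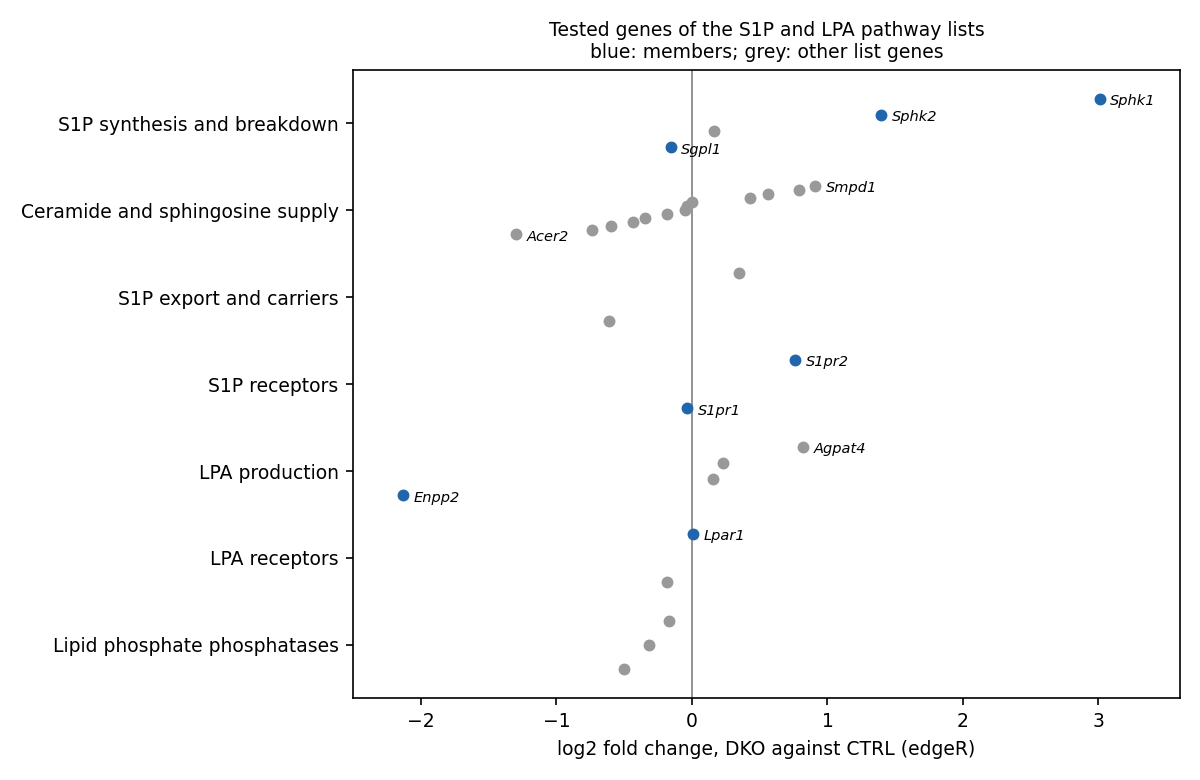
Log2 fold change in DKO against CTRL (x axis) of the tested genes (points) of 7 of the lists, in rows by list, with the members in blue and the remaining genes in grey. Sphk1 lies at 3.01, and Enpp2 (-2.13) and Acer2 (-1.30) are the lowest.

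Upstream of the kinases, 13 of 24 genes of ceramide and sphingosine supply were tested, and 4 were positive and 9 negative in DKO against CTRL. Acer2, an alkaline ceramidase of the Golgi that releases sphingosine, had 72.6, 55.8 and 78.8 CPM in DKO, 134, 30.8 and 138 CPM in SMKO, 205, 102 and 84.9 CPM in ECKO, and 205, 114 and 186 CPM in CTRL. As with Enpp2, its DKO libraries lay below all ECKO and CTRL libraries and SMKO 2 was the lowest of all. Its log2 fold change in DKO against CTRL was -1.30 ± 0.41 (edgeR adjusted p = 0.201). Without SMKO 2 it was -1.32 ± 0.31 and passed (edgeR adjusted p = 0.0124), in a setting where 139 of all genes passed. It also passed with no filter on low counts, at -1.31 (edgeR adjusted p = 0.00530), where 158 of all genes passed. With only the 2 groups compared it passed at -1.33 (edgeR adjusted p = 0.0176), where 99 of all genes did. Smpd1, the acid sphingomyelinase of the lysosome, was higher in all DKO libraries than in all CTRL libraries, with a log2 fold change of 0.91 ± 0.33 (edgeR adjusted p = 0.234).

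Downstream of them, Sgpp1, the S1P phosphatase, had 68.1, 63.7 and 45.6 CPM in DKO and 51.0, 58.7 and 44.6 CPM in CTRL, a log2 fold change of 0.16 ± 0.30. The related Sgpp2 had 0 counts in every library. Of the exporters and carriers, 2 of 7 genes were tested. The log2 fold change in DKO against CTRL was -0.61 ± 0.37 for Abca1 and 0.35 ± 0.44 for Abcc1, both ABC transporters (edgeR adjusted p = 0.551 and 0.838). Spns2, the dedicated S1P transporter of endothelial cells, had 106 counts over the 12 libraries and was not tested.

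On the LPA side, the log2 fold change of Agpat4, an acyltransferase that consumes LPA inside the cell, was 0.82 ± 0.34 in DKO against CTRL (edgeR adjusted p = 0.315). That of Pla2g4a, the cytosolic phospholipase A2, was 0.23 ± 0.32 in DKO against CTRL (edgeR adjusted p = 0.858). In DKO against ECKO it was 0.86 ± 0.34 (edgeR adjusted p = 0.316). The ECKO libraries of Pla2g4a, at 25.6, 40.9 and 43.6 CPM, lay below every DKO library, at 59.0, 89.6 and 53.9 CPM. They also lay below every CTRL library, at 43.7, 77.3 and 59.4 CPM. Lpar6 gave -0.18 ± 0.50 in DKO against CTRL, and its exons overlap those of Rb1 by 408 bases on the opposite strand. All 3 tested genes of the lipid phosphate phosphatase list had negative fold changes in DKO against CTRL, as did 3053 of the 6296 tested genes, and none of the 3 passed. Plpp3 and Plpp1, which dephosphorylate LPA and S1P at the cell surface, gave -0.50 ± 0.26 and -0.32 ± 0.29. Exons of Plpp1 overlap those of Mtrex by 452 bases on the opposite strand.

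Further downstream, Gnai3, a Gi alpha subunit, had 54.5, 67.7 and 45.6 CPM in DKO, 63.0, 71.9 and 41.4 CPM in SMKO, 25.6, 73.0 and 43.6 CPM in ECKO, and 81.6, 83.5 and 104 CPM in CTRL. Every CTRL library lay above every library of the other genotypes. Against CTRL the log2 fold change of Gnai3 was -0.58 ± 0.32 in DKO, -0.46 ± 0.33 in SMKO and -0.71 ± 0.31 in ECKO (edgeR adjusted p = 0.502, 0.934 and 0.998).

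The 5 tested genes closest to Sphk1 over the 12 libraries were LTO1, Atp13a3, Wnt9b, Ildr2 and Tnpo2, with root mean square differences of centred log2 CPM between 0.63 and 0.71. Wnt9b, a secreted Wnt ligand, had 349.6, 269 and 282 CPM in DKO, 141, 308 and 179 CPM in SMKO, 102, 128 and 138 CPM in ECKO, and 90.4, 75.7 and 89.2 CPM in CTRL. LTO1, known from yeast as an adaptor in iron-sulfur protein assembly, had 291, 229 and 377 CPM in DKO and 97.6, 78.8 and 89.2 CPM in CTRL, and its exons overlap those of Ccnd1 by 1100 bases on the opposite strand. Atp13a3, a polyamine transporter, averaged 184 ± 14.8 CPM in DKO, 132 ± 77.0 CPM in SMKO, 68.2 ± 27.7 CPM in ECKO and 68.9 ± 12.5 CPM in CTRL (SD, n = 3 each). Ildr2 had 81.7, 121 and 120.3 CPM in DKO and 36.4, 41.7 and 59.4 CPM in CTRL, and Tnpo2, a nuclear import receptor, averaged 66.4 ± 9.44 CPM in DKO and 29.4 ± 1.63 CPM in CTRL. Since likeness to Sphk1 chose these genes, their levels are a description.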

How the data were processed

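The authors deposited 1 table with whole-number total counts and TPM for each of the 12 libraries, per the file headers. The same table holds a signed fold change (a score) and a p-value for DKO set against each other genotype, per the file headers. The sources used here name neither the aligner nor the test behind those values. The genome build was GRCm39, per the submitters' processing notes. Per the labels' protocols, amplified cDNA was made into libraries with a Nextera XT kit and read as paired 75-base reads on a MiSeq.

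Counts were scaled by TMM and filtered with filterByExpr (10 counts, scaled to library size, in 3 libraries). They were tested in 1 edgeR quasi-likelihood model of all libraries (edgeR 4.0.16, R 4.3.3), with 8 residual degrees of freedom. Benjamini-Hochberg adjustment ran over 6296 genes and genes under an adjusted p of 0.05 are called. Standard errors were derived by dividing the size of the log2 fold change by the square root of F. Alternatives used DESeq2 1.42.0, limma-voom (limma 3.58.1), other scaling and filters, a replicate block, a depth covariate, only the 2 groups compared, no mitochondrial genes, and each library left out in turn. The code was tested on simulated data. The authors' TPM served only for levels between genes. A count of 0 was read as allowing up to 3 counts. Intervals of 95% and such limits cover counting error only where they come from counts, since the reads carry no molecular identifiers. Libraries of a group differed by more than sampling noise (chi-square per degree of freedom 1.97 to 12.9), so none were merged.

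The members and the gene lists were chosen with earlier results of these data known. Named genes are the 8 members, any other called gene of the lists, the 2 tested genes of each list with the smallest p over the 4 genotypes, and the 5 genes closest to Sphk1. Some genes that this rule names, a marker list and the values of a pathway list are not reported here.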

Additional observations from a re-analysis of the deposited data

How the results depend on the processing

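No fitted value of Sphk1 changed by more than the spread between libraries under any alternative, and it was not tested under the stricter filter (20 counts). The number of pathway genes called, which was 1 in 4 comparisons (DKO against CTRL, DKO against ECKO, smooth muscle deletion and the 4 genotypes together) and 0 elsewhere, depended on the setting. In each of the 4 the gene is Sphk1, around which the set was chosen, so these counts are a description. Of all tested genes, 0.492%, 0.572%, 0.206% and 0.302% passed in the same 4 comparisons. With no filter on low counts it was 3 in DKO against CTRL, 2 in DKO against ECKO, 1 in DKO against SMKO, 3 for smooth muscle deletion, 2 for endothelial deletion and 4 over the 4 genotypes. With the stricter filter it was 0 in all 4 comparisons that had a call. With only the 2 groups compared it was 3 for DKO against CTRL and 2 for DKO against ECKO. DESeq2 gave 2 in DKO against ECKO and 0 for smooth muscle deletion. Its adjusted p for Sphk1 was not available for smooth muscle deletion or for DKO against CTRL. The gene that DESeq2 called in DKO against CTRL was Enpp2 (DESeq2 adjusted p = 0.00259), which it also called over the 4 genotypes (DESeq2 adjusted p = 0.0148). Limma-voom gave 0 in DKO against ECKO and 2 over the 4 genotypes. With each library left out in turn, the count ran from 0 to 3 in DKO against CTRL, 0 to 2 in DKO against ECKO, 0 to 1 in DKO against SMKO, 0 to 2 for smooth muscle deletion, 0 to 1 for endothelial deletion, 0 to 1 for the interaction and 0 to 2 over the 4 genotypes. The highest count in each of these came without SMKO 2. In DKO against CTRL the count was 0 without CTRL 1, CTRL 2, DKO 2 or DKO 3, and in DKO against ECKO it was 0 without ECKO 2, ECKO 3, DKO 1 or DKO 2.

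Over all genes, 31 calls in DKO against CTRL became 158 with no filter, 14 with the stricter filter, 50 with a replicate block, 16 with a depth covariate, 99 with only the 2 groups, and 4 (without CTRL 2) to 139 (without SMKO 2) with a library left out. They were 6 without CTRL 1, 7 without DKO 3, 12 without DKO 1, 15 without DKO 2 and 71 without SMKO 1. The 36 calls in DKO against ECKO became 173 with no filter, 10 with the stricter filter, 10 with a depth covariate and 172 with only the 2 groups. Leaving out ECKO 2, ECKO 3 or DKO 1 took them to 0, leaving out DKO 2 to 3, CTRL 1 to 4, ECKO 1 to 6 and DKO 3 to 17, while leaving out SMKO 1 took them to 63, SMKO 3 to 64 and SMKO 2 to 150. The cause was not tested.

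Some log2 fold changes in DKO against CTRL changed sign. For Lpar1 they were -0.0094 with RLE scaling, -0.015 with no filter, -0.0074 in limma-voom, -0.017 without mitochondrial genes, -0.024 with only the 2 groups, and -0.13 to 0.097 with a library left out. With a library left out, S1pr1 ran from -0.18 to 0.063, Pla2g4a from -0.095 to 0.54 and Lpar6 from -0.62 to 0.20. The adjusted p of Enpp2 in DKO against CTRL ran from 2.02e-07 to 0.427 over 21 alternatives and passed in 4.

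The labels do not say that replicate numbers mark a shared animal, batch or day, and correlations of deviations from group means ran from -0.14 to 0.18 over 18 same-number pairs, 5 of them over 0.1, so the numbers were not taken as pairs. As a hint from the data, 8 of 12 libraries correlated best with their own number. With the replicate block the number of pathway genes called was 1 in DKO against CTRL and no other comparison's count changed, and Enpp2 stood at -2.14 (adjusted p = 0.231). Depth limits the low genes most: S1pr3 failed the filter, and Sphk1 had 5 or fewer counts in every ECKO and CTRL library.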

Other observations

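Transcripts of S1P making and S1P cleaving enzymes can be set against each other as the summed deposited TPM of Sphk1 and Sphk2 over the TPM of Sgpl1. This ratio was 1.32, 1.002 and 1.83 in DKO, 0.419, 0.227 and 1.23 in SMKO, 0.686, 0.789 and 0.983 in ECKO, and 0.323, 0.236 and 0.263 in CTRL. All DKO libraries lay above all ECKO libraries, all ECKO libraries lay above all CTRL libraries, and SMKO ran from below the CTRL range to within the DKO range. The ratio was formed after the values were seen and holds Sphk1, so it is given as a description with no test.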
